A study of Mus musculus with 32 samples.

Results

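Solute carrier (Slc and Slco) genes were followed through the ATAC-seq peak lists of orbitofrontal cortex (OFC) astrocytes. The peaks described here are those on chromosomes 1 to 19 whose listed nearest gene has a symbol beginning with Slc and a digit, or with Slco. They are 194 of 13794 autosomal peaks over 6 peak lists, and they name 30 of the 2013 genes named by autosomal peaks.

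ATAC-seq, which reads where a transposase can enter chromatin, was performed on astrocytes isolated by magnetic beads against the surface marker ACSA-2 from virus-injected OFC of male C57BL/6J mice. All animals, controls included, received an AAV6 vector driven by the GFAP promoter, and each sample pooled 3 mice. The methods give an age of 8 weeks for a chronic defeat cohort assayed for Zbtb7a expression and for the SSDS cohort. The SSDS cohort was injected 3 weeks earlier. The methods give no separate age for the virus-injected mice of the chronic defeat groups. GFP control (5 samples) carried a scrambled miRNA with GFP and was not stressed, and GFP CSDS (5 samples) carried the same virus and underwent 10 days of chronic social defeat stress (CSDS). Zbt-KD control (5 samples) and Zbt-KD CSDS (5 samples) carried a miRNA against endogenous Zbtb7a, without and with CSDS. GFP SSDS (6 samples) carried the GFP empty vector and ZBT-OE SSDS (6 samples) a ZBTB7A overexpression construct; the stress of both, 1 day of subthreshold social defeat (SSDS), is given by the study's methods and not by the labels, which list the group as NA. ZBTB7A is a zinc finger transcription factor. The 32 samples are represented by 1 peak list per group, so no spread between samples can be given, no difference between groups was tested, and the depth behind a peak is unknown.

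Solute carriers are membrane proteins that move ions, nutrients, metabolites and transmitters across the plasma membrane or the membranes of organelles. Families are numbered by sequence and broadly share substrates: families 1, 6 and 7 carry amino acids and transmitters, family 16 monocarboxylates such as lactate, families 31 and 39 copper and zinc, family 25 the mitochondrial inner membrane traffic, and Slco and most family 22 members organic anions. Astrocytes are known for glutamate and glycine uptake, lactate export and bicarbonate transport through such carriers.

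A promoter was available in the RefSeq promoter table (GRCm38) for 25 of the 30 genes, and the 250 bases before the start were compared with the peaks. Of these 25 promoter windows, 6 were touched by a peak in all 6 lists (Slc17a5, Slc22a28, Slc22a29, Slc25a40, Slc2a12 and Slc44a1), 11 in 1 to 3 lists and 8 in no list. The 3 that span the range of base composition are shown 5′ to 3′ on the gene's strand with each CG dinucleotide in capitals. Slc44a1 (chr4:53440163-53440412, plus strand) has 38 CG and 81.2% GC, Slc2a12 (chr10:22644761-22645010, plus strand) has 5 CG and 48.8% GC, and Slc22a28 (chr19:8131983-8132232, minus strand) has 1 CG and 26.8% GC.
Slc44a1: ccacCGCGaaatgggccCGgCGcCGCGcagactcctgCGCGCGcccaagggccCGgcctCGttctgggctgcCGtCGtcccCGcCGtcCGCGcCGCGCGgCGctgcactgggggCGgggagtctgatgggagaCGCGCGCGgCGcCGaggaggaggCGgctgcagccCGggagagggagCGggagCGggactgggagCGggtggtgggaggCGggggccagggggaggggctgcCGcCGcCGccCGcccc
Slc2a12: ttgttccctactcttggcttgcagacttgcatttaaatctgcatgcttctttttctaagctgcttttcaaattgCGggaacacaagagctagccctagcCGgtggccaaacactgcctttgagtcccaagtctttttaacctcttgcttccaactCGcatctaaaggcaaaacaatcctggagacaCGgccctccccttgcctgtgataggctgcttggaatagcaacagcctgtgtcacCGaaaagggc
Slc22a28: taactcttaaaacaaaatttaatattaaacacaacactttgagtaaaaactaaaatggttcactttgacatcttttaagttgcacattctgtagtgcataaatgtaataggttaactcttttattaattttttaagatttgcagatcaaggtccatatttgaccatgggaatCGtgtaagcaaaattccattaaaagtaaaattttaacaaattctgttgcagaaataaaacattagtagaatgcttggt

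The promoters of Slc22a19 (35.6% GC), Slc31a2 (56% GC), Slc37a4 and Slc9a3r1 were touched only in the ZBT-OE SSDS list. Those of Slc37a4 (chr9:44396696-44396945, plus strand, 49.6% GC) and Slc9a3r1 (chr11:115163091-115163340, plus strand, 62.8% GC) are shown in the same way and hold 7 and 20 CG.
Slc37a4: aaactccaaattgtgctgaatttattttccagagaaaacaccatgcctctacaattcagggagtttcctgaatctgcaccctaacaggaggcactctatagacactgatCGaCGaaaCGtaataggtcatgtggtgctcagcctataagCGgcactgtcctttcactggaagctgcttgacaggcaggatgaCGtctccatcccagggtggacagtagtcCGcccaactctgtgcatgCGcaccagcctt
Slc9a3r1: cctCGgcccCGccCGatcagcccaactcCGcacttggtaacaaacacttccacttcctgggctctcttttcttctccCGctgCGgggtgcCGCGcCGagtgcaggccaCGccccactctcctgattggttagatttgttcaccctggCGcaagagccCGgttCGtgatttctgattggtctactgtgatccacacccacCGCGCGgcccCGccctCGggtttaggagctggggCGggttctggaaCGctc

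The median count of CG was 6 over the 25 promoters, 9 over 378 promoters of autosomal Slc genes and 6 over all 32851 promoters of the table. The letters CCTTCCC, or GGGAAGG on the other strand, are a core of the C-rich sequence bound by ZBTB7A. They occurred in 2 of the 25 promoters (8.0%, 95% Wilson interval 2.22 to 25.0%), in 12.2% of autosomal Slc promoters and in 11.1% of all promoters. Both are genes that astrocytes are known to use. Slc16a1 (chr3:104638414-104638663, plus strand), the lactate transporter MCT1, holds the letters at 192 and 74 bases before its start, and Slc7a10 (chr7:35186135-35186384, plus strand), the Asc-1 exchanger of small neutral amino acids, holds them at 141. The matched letters are in capitals, and neither promoter window was touched by a peak in any list.
Slc16a1: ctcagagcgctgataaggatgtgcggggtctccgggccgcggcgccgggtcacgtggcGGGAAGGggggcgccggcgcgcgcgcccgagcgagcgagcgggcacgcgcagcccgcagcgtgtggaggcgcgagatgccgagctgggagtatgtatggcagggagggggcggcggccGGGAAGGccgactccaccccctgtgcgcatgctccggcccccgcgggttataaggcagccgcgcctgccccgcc
Slc7a10: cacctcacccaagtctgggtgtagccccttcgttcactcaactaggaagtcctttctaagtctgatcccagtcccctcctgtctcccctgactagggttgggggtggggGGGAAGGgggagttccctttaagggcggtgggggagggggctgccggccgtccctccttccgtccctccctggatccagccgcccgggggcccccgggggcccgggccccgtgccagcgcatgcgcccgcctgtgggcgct

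The number of Slc peaks differed widely over the lists: 93 in GFP control, 42 in GFP CSDS, 14 in Zbt-KD control, 11 in Zbt-KD CSDS, 18 in GFP SSDS and 16 in ZBT-OE SSDS. The number of genes they named differed less, at 16, 15, 12, 9, 13 and 16. As a share of the autosomal peaks of their list, the Slc peaks made up 1.72% in GFP control (95% Wilson interval 1.40 to 2.099%), 1.23% in GFP CSDS (0.913 to 1.66%), 1.075% in Zbt-KD control (0.642 to 1.80%), 0.929% in Zbt-KD CSDS (0.520 to 1.66%), 1.40% in GFP SSDS (0.889 to 2.21%) and 1.33% in ZBT-OE SSDS (0.823 to 2.16%). Each interval overlaps every other one. This holds for assignment by peak name only: assigned by a TSS within 10 kb, Slc peaks made up 0.499% of GFP control and 2.75% of ZBT-OE SSDS. The intervals treat peaks as independent and cover counting error only, whereas the peaks of 1 gene share a locus.

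The lists cut the same chromatin at different scales, and this touches every count of peaks below. The median Slc peak was 2013 bp wide in GFP control and 4366.5 bp in GFP CSDS, but 157210, 224356, 113639 and 110885 bp in Zbt-KD control, Zbt-KD CSDS, GFP SSDS and ZBT-OE SSDS. Over all autosomal peaks the medians were 1976.5, 4040, 32946.5, 41306, 53916 and 73104 bp. Whether peaks as wide as these mark open chromatin throughout was not tested. Covered lengths are given beside the counts, and they too are lower where a region is cut into small peaks with gaps. The Slc peaks of all lists merged into 51 regions of 4.49 Mb, of which the peaks of any name covered 54.8% in GFP control, 56.9% in GFP CSDS, 61.0% in Zbt-KD control, 68.6% in Zbt-KD CSDS, 82.1% in GFP SSDS and 82.0% in ZBT-OE SSDS. The same shares over the 2176 regions merged from all autosomal peaks (265 Mb) were 54.4, 63.8, 65.05, 66.4, 82.2 and 85.2%. In both sets the SSDS lists covered the most and GFP control the least.

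Of the 51 Slc regions, 13 (25.5%) were touched by a peak in all 6 lists, and they span 3.44 Mb of the 4.49 Mb, though a region touched in a list is often covered only in part there. Another 13 (25.5%) were touched in 1 list only, against 52.4% of all merged regions. Over all merged regions 21.7% were touched in all 6 lists.

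By gene, 8 of the 30 were named in all 6 lists: Slc22a19, Slc22a28, Slc2a12, Slc39a10, Slc44a1, Slc5a7, Slc6a15 and Slco6d1. Slc25a40 was named in 5 lists, 7 genes in 2 lists and 14 genes in 1 list. Which genes these are depends on the assignment: by a TSS within 10 kb of a peak, or by gene body, 11 family genes were met in all 6 lists, of which 3 are among the 8 (Slc22a28, Slc2a12 and Slc44a1). A name can be lost when a wide peak takes the name of a neighbour, and for 13 genes the region spanned by their peaks was touched in more lists than the gene was named in. The plot of covered regions by gene shows both. The counts of this paragraph are not given for all genes named by autosomal peaks, so no persistence particular to Slc genes is read.

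**Figure D1:**
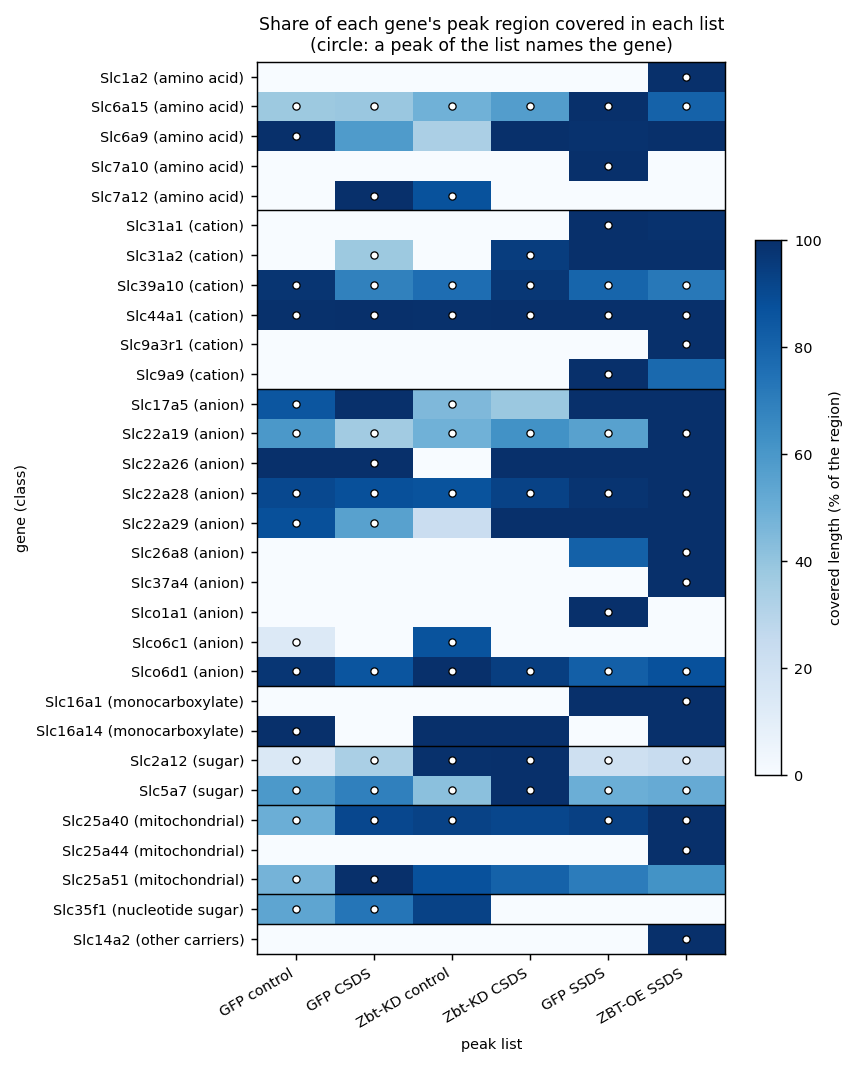
Rows are the 30 genes with their class and columns are the 6 peak lists; the colour gives the percentage of the region spanned by the gene's peaks (merged over the lists) that peaks of any name cover in that list, and a circle marks a list in which a peak names the gene. Slc44a1 and Slc22a28 are covered by over 85% in every list, while the region of Slc35f1 is covered in the first 3 lists and at 0 in the other 3.

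Among amino acid and neurotransmitter carriers, 5 genes of 65 in the annotation were named, by 21 peaks. Slc6a15, a sodium-dependent carrier of neutral amino acids, had the largest region, 779 kb on chromosome 10 (mm10, 103213820 to 103993086), which spans the gene and the stretch beyond it. Of this region 37.6% was covered in GFP control, 38.4% in GFP CSDS, 48.7% in Zbt-KD control, 57.4% in Zbt-KD CSDS, 100% by construction in GFP SSDS, whose peak sets the bounds of the region, and 80.8% in ZBT-OE SSDS. In GFP CSDS and in both Zbt-KD lists its peak lay wholly downstream and covered none of the gene body, whereas both SSDS lists covered the whole body and the transcription start site (TSS). In GFP control a separate peak of 1.70 kb, centred in intron 1, covered the TSS. In ZBT-OE SSDS the Slc6a15 peak had a fold enrichment of 3.60 and stood at percentile 90.1 of its list. Fold enrichment, the caller's ratio of signal to background, is read only within a list.

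The glycine transporter gene Slc6a9 was named only in GFP control, by 2 peaks of 2.86 and 1.15 kb. The first base of its GENCODE body was covered in Zbt-KD CSDS, GFP SSDS and ZBT-OE SSDS by wide peaks named for the neighbour Klf17, which reached 31.2%, 5.34% and 31.6% of the gene body. The Klf17 peaks of GFP CSDS and Zbt-KD control ended before the gene, which left its body at 0.

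Slc7a12, a carrier of small neutral amino acids, was named in GFP CSDS and Zbt-KD control only. Its peaks began at the same base (chromosome 3, 14452349) and ended at 14463371 and 14461940, with centres 22.8 and 23.6 kb before the TSS of the gene. No peak of any name touched this region in the other 4 lists. The deposited annotation places an L1Md_F3 LINE at both centres, and the 120 bases at the centre of the shared stretch (chr3:14457085-14457204, plus strand, GRCm38) are wholly soft-masked as repeat in the reference. They are shown because both Slc7a12 peaks overlie this repeat, with no capitals because no part is singled out.
Slc7a12 peak centre: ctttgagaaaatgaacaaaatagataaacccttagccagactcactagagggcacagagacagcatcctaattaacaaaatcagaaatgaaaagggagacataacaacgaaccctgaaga

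The 2 other amino acid carriers were each named once. Slc1a2, the main glutamate transporter of astrocytes, was named in ZBT-OE SSDS by a peak of 37.7 kb (chromosome 2, 102620746 to 102658452) that lay over the neighbour Pamr1 and ended 0.207 kb before the 5′ end of the GENCODE gene. Its fold enrichment of 1.45 stood at percentile 5.00 of that list. In the other 5 lists the nearest peak lay 1984 to 2111 kb from Slc1a2. Slc7a10 was named in GFP SSDS by a peak of 10.4 kb with a fold enrichment of 1.47, at percentile 6.55, which ended 0.907 kb before the gene. Of the Slc7a10 body, 43.7% lay under other peaks of that list.

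Cation carriers were represented by 6 genes of 76, with 37 peaks. Slc44a1, a choline transporter-like protein, was the most even of all: 1 peak in each list ran from about 110 kb before the TSS to about 170 kb after it and covered 99.5, 99.7, 99.4, 99.8, 99.99 and 99.7% of the merged region (chromosome 4, 53330148 to 53610929) in the order GFP control, GFP CSDS, Zbt-KD control, Zbt-KD CSDS, GFP SSDS and ZBT-OE SSDS. The gene body was covered to between 93.1 and 93.7%. Its edges at both sides differed by less than 1 kb over the 6 groups.

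Slc39a10, a zinc importer, was named by 23 peaks in all 6 lists, yet no peak touched its gene body. The peaks lay on both sides, over introns of Dnah7c on one side and in intergenic sequence on the other, 39.3 to 268 kb from the TSS. The merged length of 320 kb was covered to 97.7% in GFP control, 68.7% in GFP CSDS, 76.2% in Zbt-KD control, 96.97% in Zbt-KD CSDS, 79.6% in GFP SSDS and 72.1% in ZBT-OE SSDS. GFP control and Zbt-KD CSDS were the highest. The wide intergenic peak was present in all 6 lists, and in GFP control it had a fold enrichment of 3.08, at percentile 97.8 of that list.

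The copper genes are neighbours on chromosome 4 and were covered by peaks of several names. Slc31a1, the copper importer CTR1, was named in GFP SSDS by a peak of 129 kb that covered its whole body with a fold enrichment of 3.03, and a peak named Zfp37 covered the whole body in ZBT-OE SSDS. No control or CSDS list touched Slc31a1. Slc31a2, its relative linked to intracellular copper, was named by 4 small peaks in GFP CSDS and by 1 peak of 19.3 kb in Zbt-KD CSDS. Its region was at 0% in GFP control, 37.5% in GFP CSDS, 0% in Zbt-KD control, 94.8% in Zbt-KD CSDS, 100% in GFP SSDS and 100% in ZBT-OE SSDS. It was at 0 in both unstressed lists, but the region was drawn from the peaks of the CSDS lists alone, which fixes their coverage. The virus and stress protocols of the SSDS lists differ from those of the CSDS lists, and the 4 peaks of GFP CSDS had low ranks, at percentiles 12.6 to 23.1.

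Slc9a9, an endosomal sodium/proton exchanger, was named in GFP SSDS by a peak of 126 kb over its TSS, and 77.8% of the same stretch lay under a peak named Mir7656 in ZBT-OE SSDS. Slc9a3r1 encodes NHERF1, a scaffold that binds family 9 exchangers and is not itself a carrier. It met the symbol rule through 1 peak of 24.6 kb in ZBT-OE SSDS, which covered the whole gene at a fold enrichment of 1.505.

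Anion carriers were the largest class, with 10 genes of 78 and 58 peaks. The family 22 cluster on chromosome 19, which encodes organic anion transporters, supplied 4 of them. Slc22a28 had 1 peak in every list, from near 7842385 to between 8267262 and 8342359, and its fold enrichment was 3.38, 3.43, 3.25, 3.32, 3.73 and 4.23 in GFP control, GFP CSDS, Zbt-KD control, Zbt-KD CSDS, GFP SSDS and ZBT-OE SSDS. These values are not comparable between lists. In each list it stood between percentiles 92.2 and 98.5. The peak covered the bodies of Slc22a27, Slc22a28 and Slc22a29 completely in all 6 lists, and it also reached Slc22a30 in ZBT-OE SSDS.

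Slc22a29 was named in the GFP control and GFP CSDS lists only, by 6 and 4 peaks beyond the end of the wide peak. In the other 4 lists the wide peak named Slc22a28 reached into the same stretch and covered 22.9, 100, 100 and 100% of it. In 3 of these lists the name was lost while the stretch was wholly covered, and in Zbt-KD control most of the stretch was uncovered. Slc22a19, of the same cluster, was named in all 6 lists, and its region was covered to 59.6, 36.1, 48.6, 62.3, 55.7 and 100%, the last because the region is the ZBT-OE SSDS peak. Only in ZBT-OE SSDS did its peak reach the TSS and 23.0% of the gene body. The single peak naming Slc22a26, in GFP CSDS, lay within this Slc22a19 region.

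Slco6d1, an organic anion transporting polypeptide gene, was named by 20 peaks in all 6 lists, 43.1 to 630 kb from its TSS and never over its body. Its merged regions span 586 kb, and coverage stayed between 81.9% in GFP SSDS and 99.8% in Zbt-KD control. Slco6c1 was named in GFP control and Zbt-KD control by 1 peak each, at different places 70.7 and 95.4 kb before the gene, and no other list touched either place; both places were drawn from these unstressed lists alone. Slco1a1 was named in GFP SSDS alone, by a peak of 101 kb that covered its whole body at a fold enrichment of 1.66.

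Slc17a5 encodes sialin, which exports sialic acid from lysosomes. Its TSS was covered in all 6 lists, although only GFP control (5 peaks) and Zbt-KD control (1 peak) named it. In the other lists the TSS lay under a peak named Cd109, and 40.998% of the gene body was covered in GFP CSDS, 0.615% in Zbt-KD CSDS, 41.1% in GFP SSDS and 41.1% in ZBT-OE SSDS, beside 31.8% in GFP control and 11.3% in Zbt-KD control. Both Zbt-KD lists were the lowest. Slc37a4, the endoplasmic reticulum transporter of glucose-6-phosphate, and Slc26a8, an anion exchanger, were named only in ZBT-OE SSDS. The Slc37a4 peak of 38.8 kb covered that gene and 4 coding neighbours and met no peak of another list, whereas the Slc26a8 body was also wholly covered in GFP SSDS, under a peak named Mapk14.

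Monocarboxylate carriers contributed 2 genes of 13 with 1 peak each. Slc16a1 was named in ZBT-OE SSDS by an intergenic peak of 62.8 kb, 60.3 kb beyond its TSS, with a fold enrichment of 2.00. A peak named Tafa3 covered this whole stretch and 18.8% of the Slc16a1 body in GFP SSDS, and no list covered its TSS. Slc16a14, an orphan of the family, was named by 1 peak of 701 bp in GFP control. In Zbt-KD control, Zbt-KD CSDS and ZBT-OE SSDS this spot lay near the edge of a peak of 676 to 680 kb named C130026I21Rik.

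The sugar carriers by family number were Slc2a12 and Slc5a7, with 43 peaks, and both were named in all 6 lists. Slc2a12 encodes the glucose transporter GLUT12. Its TSS was covered in all 6 lists, and the plot of peaks around it shows 10 and 12 separate peaks in GFP control and GFP CSDS. In Zbt-KD control and Zbt-KD CSDS a single peak of 155 and 156 kb ran over the same stretch (chromosome 10, 22528320 to 22683985). The covered share of this region was 14.7% in GFP control, 33.9% in GFP CSDS, 99.5% in Zbt-KD control, 99.98% in Zbt-KD CSDS, 20.96% in GFP SSDS and 23.7% in ZBT-OE SSDS. The region is bounded by the knockdown peaks, so their near-complete coverage follows from how it was drawn. Over the gene body, whose bounds do not depend on peaks, the knockdown lists were the highest, at 65.8 and 65.7% against 20.0, 34.7, 23.3 and 39.98% in GFP control, GFP CSDS, GFP SSDS and ZBT-OE SSDS.

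Slc5a7 belongs to the sugar family by number but encodes the high-affinity choline transporter of cholinergic neurons. Its region of 381 kb (chromosome 17, 54087973 to 54468498) was covered to 59.3, 69.0, 41.9, 100, 49.7 and 51.5% in the same order of lists, the 100% by construction since the Zbt-KD CSDS peak bounds the region. The gene body was wholly covered in GFP CSDS and Zbt-KD CSDS, to 24.02% in GFP control, and to 0% in Zbt-KD control, GFP SSDS and ZBT-OE SSDS. Under both viruses of the CSDS experiment the CSDS list covered more of this gene than its control list. In ZBT-OE SSDS the Slc5a7 peak had a fold enrichment of 3.36 and stood at percentile 87.7.

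**Figure D2:**
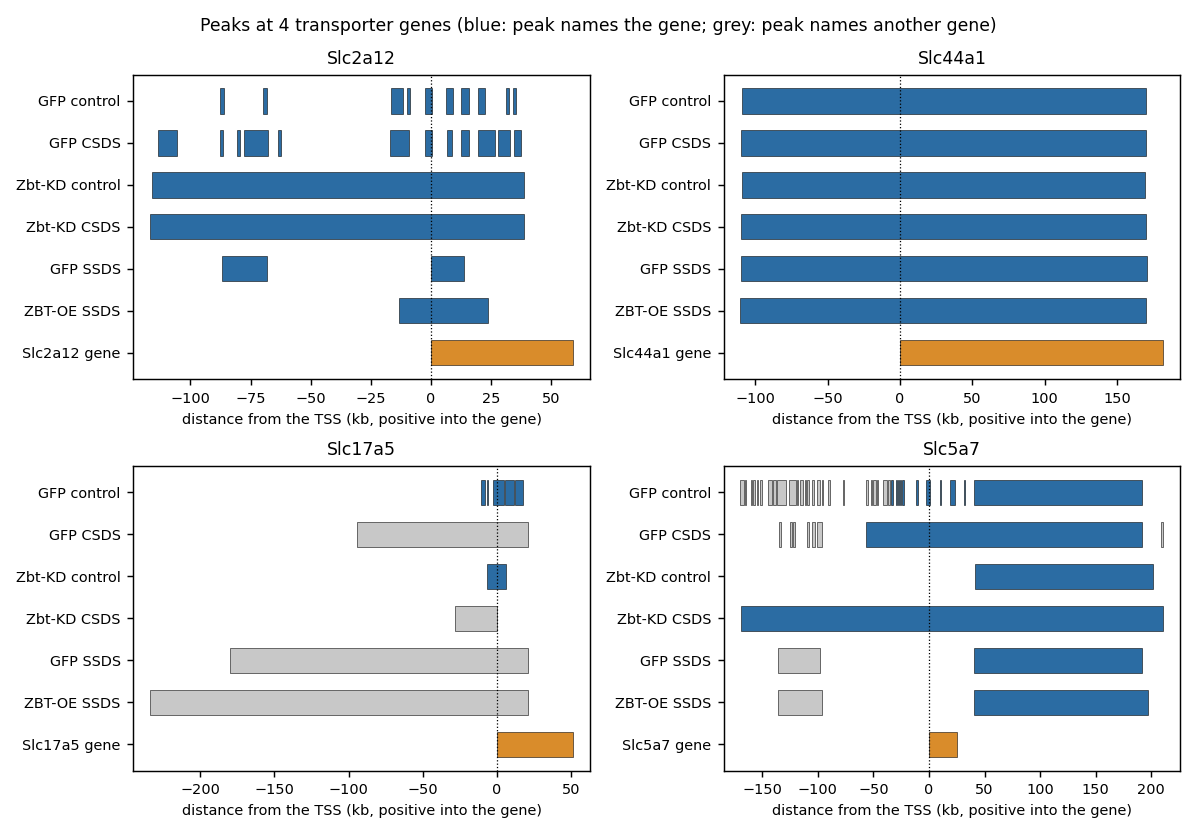
Peaks around Slc2a12, Slc44a1, Slc17a5 and Slc5a7 in the 6 lists, drawn by distance from the TSS in kb, positive into the gene; blue bars are peaks that name the gene, grey bars peaks that name another gene, and the orange bar is the gene. Slc44a1 has the same single peak in every list, while the many small Slc2a12 peaks of GFP control and GFP CSDS stand where each Zbt-KD list has 1 wide peak.

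Mitochondrial carriers were 3 genes of 43, with 23 peaks. Slc25a40, linked to mitochondrial glutathione import, lies in a region of 429 kb on chromosome 5 (8232095 to 8660594) that was covered to 49.8% in GFP control, 90.7% in GFP CSDS, 92.8% in Zbt-KD control, 91.2% in Zbt-KD CSDS, 93.7% in GFP SSDS and 100% in ZBT-OE SSDS. The SSDS peaks bound this region, so their near-complete coverage follows from how it was drawn. GFP control was the only list below 90%. Its gene body was covered to 38.5% there and to 100% in the other 5, including Zbt-KD CSDS, where the gene itself was not named. In that list the body lay under a peak named Dbf4, and a peak named Rundc3b covered a further part of the region. Slc25a51, the mitochondrial NAD carrier, was named in GFP control and GFP CSDS, but its TSS was covered in all 6 lists, in the other 4 under a peak named Dcaf10. Slc25a44, a mitochondrial carrier of branched-chain amino acids, was named in ZBT-OE SSDS alone by a peak of 26.9 kb over its whole body.

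The remaining classes held 1 gene each. Slc35f1, an orphan of the nucleotide sugar family, was named by 6 peaks in GFP control and 3 in GFP CSDS. A GFP control peak of 1.06 kb covered the 5′ end of Slc35f1, annotated as exon 1, and stood at percentile 86.9 of its list with a fold enrichment of 1.89. No other list covered that TSS. The upstream peaks of Slc35f1 lay 42 to 71 kb before the gene, and in Zbt-KD control they fell under a peak of 121 kb named for the pseudogene Zfa-ps. Its merged region was covered to 53.8, 73.2 and 92.9% in GFP control, GFP CSDS and Zbt-KD control and to 0% in the other 3 lists. Slc14a2, a urea transporter, was named in ZBT-OE SSDS by a peak of 23.1 kb that lay 251 kb away in an intron of Setbp1.

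To ask how chronic stress and the level of Zbtb7a bore on these genes, 5 pairs of lists were compared. A peak was counted as opened if it was in the list of the first-named group and overlapped no peak of the other by at least 1 bp, and as closed in the reverse case. Comparisons that share a list are not independent of one another. The intervals again treat the peaks of 1 gene as independent.

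GFP CSDS against GFP control asks what CSDS did under the control virus. Of the 42 Slc peaks of GFP CSDS, 10 were opened (23.8%, 95% Wilson interval 13.5 to 38.5%), beside 48.2% of all its autosomal peaks. They named Slc25a51, Slc2a12, Slc31a2, Slc35f1 and Slc7a12, and the highest fold enrichment among them was the Slc7a12 peak at 1.84. Of the 93 Slc peaks of GFP control, 23 were closed (24.7%, 17.1 to 34.4%), beside 29.2% of all. These named 8 genes, led by the peak at the Slc35f1 5′ end, the Slc6a15 intron 1 peak at 1.86 and a Slc39a10 peak at 1.82. The opened share lay below that of all peaks and its interval excluded it, while the closed share lay within counting error of it. By length, 10.6% of the Slc length of GFP CSDS was not covered in GFP control (all peaks 20.5%), and 9.88% of that of GFP control was not covered in GFP CSDS (all peaks 6.67%). With both lists brought to 1 scale, by merging peaks less than 20364 bp apart and keeping those of at least 20269 bp, 2 of 14 Slc regions were opened (14.3%, all 25.6%) and 0 of 16 closed (all 11.6%), and the opened share then lay within counting error of that of all regions.

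Zbt-KD control against GFP control asks what the knockdown did without stress. Of 14 Slc peaks, 2 were opened (14.3%, 4.01 to 39.9%), the Slc7a12 and Slco6c1 peaks at 1.75 and 1.58, beside 31% of all peaks. Of the 93 Slc peaks of GFP control, 32 were closed (34.4%, 25.5 to 44.5%), beside 28.8% of all. They named 9 genes, among them Slc17a5, Slc5a7, Slc6a9 and the 3 peaks at Slc35f1, Slc6a15 and Slc39a10 that were also absent from GFP CSDS. Both shares lay within counting error of those of all peaks. By length, 16.8% of the Slc length was opened and 6.64% closed, beside 21.6 and 6.24% of all. On 1 scale, 0 of 11 Slc regions were opened and 0 of 16 closed, beside 22.4 and 9.69% of all, so each closed Slc peak was narrower than the width kept or merged into a region that the other list touched.

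Zbt-KD CSDS against Zbt-KD control asks what CSDS did under knockdown. Of 11 Slc peaks, 1 was opened (9.09%, 1.62 to 37.7%), the Slc31a2 peak at 1.72, beside 27.6% of all peaks. Of 14 Slc peaks, 2 were closed (14.3%, 4.01 to 39.9%), again those of Slc7a12 and Slco6c1, beside 24.3% of all. By length, 16.4% of the Slc length was opened, beside 13.2% of all, and 3.36% was closed, beside 11.3% of all. The opened length came mostly from wider peaks at Slc6a15 and Slc5a7 and not from separate ones. On 1 scale, 1 of 10 Slc regions was opened and 0 of 11 closed, beside 17.3 and 16.2% of all.

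Zbt-KD CSDS against GFP CSDS asks what the knockdown did in stressed mice. Of 11 Slc peaks, 0 were opened (95% Wilson interval 0 to 25.9%), beside 22% of all peaks. Of 42 Slc peaks, 4 were closed (9.52%, 3.77 to 22.1%), 1 at Slc7a12 and 3 at Slc35f1, beside 38.3% of all. The closed share lay below that of all peaks and its interval excluded it. By length, 21.3% of the Slc length of Zbt-KD CSDS was not covered in GFP CSDS (all 13.7%), and 2.85% of that of GFP CSDS was not covered in Zbt-KD CSDS (all 10.2%). On 1 scale, 0 of 10 Slc regions were opened and 0 of 14 closed, beside 13.6 and 16.1% of all, and there the closed share lay within counting error of that of all regions.

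ZBT-OE SSDS against GFP SSDS asks what ZBTB7A overexpression did after subthreshold stress. Of 16 Slc peaks, 5 were opened (31.2%, 14.2 to 55.6%), beside 31.4% of all peaks, and they named Slc14a2, Slc1a2, Slc25a44, Slc37a4 and Slc9a3r1. The highest fold enrichments were 2.37 for Slc37a4, 1.83 for Slc25a44 and 1.70 for Slc14a2. Of 18 Slc peaks, 4 were closed (22.2%, 9.001 to 45.2%), beside 27.7% of all, at Slc2a12, Slc39a10, Slc7a10 and Slco1a1, with fold enrichments of 1.42 to 1.66. In the full lists both shares were near those of all peaks. With the upper 50% of each list by fold enrichment the Slc shares were 14.3% (1 of 7) and 11.1% (1 of 9). The shares of all peaks at that setting are not given, so no change particular to Slc peaks is read. This was the comparison in which the most Slc sequence lay in separate peaks, 151 kb opened and 147 kb closed. By length, 12.6% was opened and 12.4% closed, beside 13.2 and 9.96% of all. On 1 scale, 6 of 16 Slc regions were opened (37.5%, all 35.4%) and 1 of 15 closed (6.67%, all 12.6%).

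**Figure D3:**
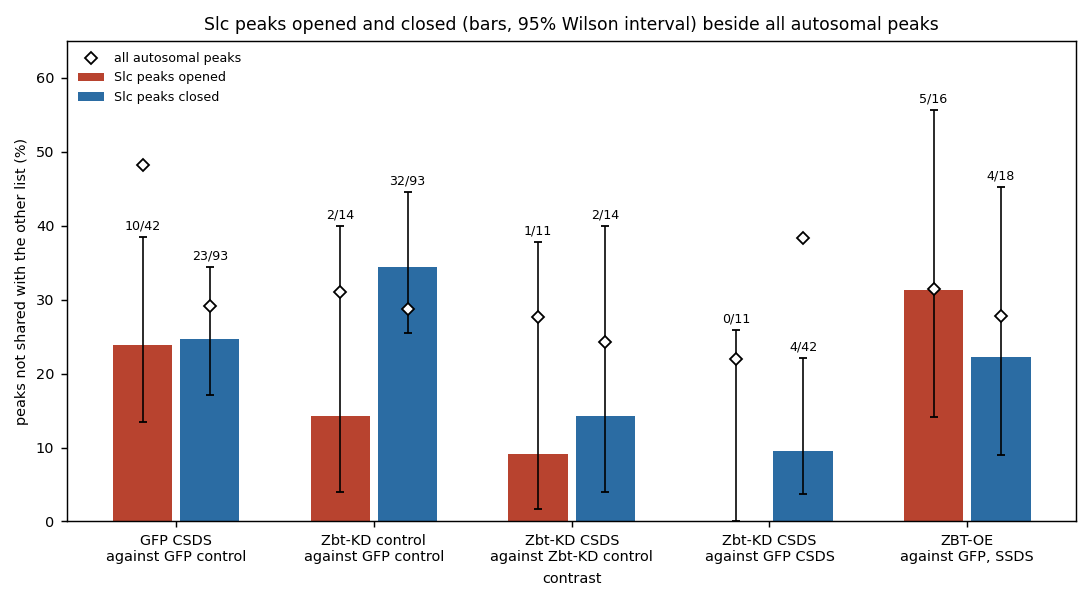
For each of the 5 comparisons, bars give the percentage of Slc peaks opened (in the first-named list) and closed (in the other list) with 95% Wilson intervals over peaks, and diamonds give the same percentage over all autosomal peaks of that list. The diamonds lie above the intervals for peaks opened in GFP CSDS against GFP control and closed in Zbt-KD CSDS against GFP CSDS, and inside the others.

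A peak's name depends on its centre, so the start sites of the whole family were read directly, whatever name the covering peak had. The annotation holds 372 autosomal protein-coding Slc and Slco genes among 20807 coding genes. Their TSS was covered for 14 in GFP control (3.76%), 12 in GFP CSDS (3.23%), 11 in Zbt-KD control (2.96%), 14 in Zbt-KD CSDS (3.76%), 21 in GFP SSDS (5.65%) and 30 in ZBT-OE SSDS (8.06%). Over all coding genes the shares were 5.22, 5.37, 5.60, 5.53, 7.42 and 10.9%. The Slc share was below that of all coding genes in each list, but in 5 of the 6 the latter lay inside the 95% Wilson interval of the Slc share; the exception was Zbt-KD control (1.66 to 5.22%). Both shares were highest in ZBT-OE SSDS.

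In GFP CSDS against GFP control, the TSS of 0 Slc genes was covered only in GFP CSDS (0.533% of all coding TSSs) and that of 2, Slc35f1 and Slc6a15, only in GFP control (0.38% of all). In Zbt-KD control against GFP control, 0 were covered only in Zbt-KD control (0.803% of all) and 3, Slc35f1, Slc5a7 and Slc6a15, only in GFP control (0.423% of all). In Zbt-KD CSDS against Zbt-KD control, 3 were covered only in Zbt-KD CSDS, namely Slc31a2, Slc5a7 and Slc6a9 (0.509% of all), and 0 only in Zbt-KD control (0.582% of all). The Slc6a9 call rests on the Klf17 peak at a fold enrichment of 1.38, the lowest of that list, and the count was 1 with the upper 50% of each list by fold enrichment. In Zbt-KD CSDS against GFP CSDS, 2 were covered only in Zbt-KD CSDS, Slc31a2 and Slc6a9 (0.586% of all), and 0 only in GFP CSDS (0.433% of all). The count of 2 became 1 with a TSS within 1 kb of a peak and 0 with the upper 50%. The Slc31a2 call holds for the GENCODE 5′ end, while its RefSeq promoter window was touched only in ZBT-OE SSDS. These are counts of 0 to 3 of 372 genes, and a count of 0 has a 95% Wilson interval of 0 to 1.02%. Counts of all coding TSSs under the alternatives are not given.

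ZBT-OE SSDS against GFP SSDS gave the longest list. The TSS of 11 Slc genes was covered only in ZBT-OE SSDS (2.96%, 1.66 to 5.22%), beside 4.11% of all coding TSSs, and that of 2 genes, Slc35a5 and Slco1a1, only in GFP SSDS, beside 0.663% of all. The 11 were Slc12a4, Slc22a19, Slc25a10, Slc25a42, Slc25a44, Slc2a3, Slc37a4, Slc39a1, Slc3a2, Slc44a2 and Slc9a3r1. They include Slc2a3, a glucose transporter best known from neurons, Slc3a2, the shared heavy chain of several amino acid exchangers, and 3 mitochondrial carriers. Only 4 of the 11, Slc22a19, Slc25a44, Slc37a4 and Slc9a3r1, were named by a peak of this list. In the full lists the share of all coding TSSs lies within the interval of the Slc share. The Slc count was 2 when only the upper 50% of each list by fold enrichment was used. The count of all coding TSSs at that setting is not given, so no fall particular to Slc genes is read.

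Over all lists, peaks overlapped the body of 41 of the 372 family genes, of which 19 were named by no peak. This is 11.02% (8.23 to 14.6%), near the 13.7% of all coding genes. The body was overlapped in all 6 lists for 11, which include the citrate transporter gene Slc13a5 and Slc51a, both covered completely. Of the 30 genes named by peaks, the body of 22 was overlapped in some list and that of 8 in none (Slc14a2, Slc16a14, Slc1a2, Slc22a26, Slc39a10, Slc7a12, Slco6c1 and Slco6d1). The TSS of 20 was covered in some list, and that of 7 in all 6 lists.

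In each list the median Slc peak lay closer to its listed TSS than the median of all peaks, a description without a test. The median distance of a peak centre to the listed TSS was 59.8 and 43.98 kb in the GFP control and GFP CSDS lists, 83.8 and 56.6 kb in the Zbt-KD control and Zbt-KD CSDS lists, and 60.7 and 28.8 kb in the GFP SSDS and ZBT-OE SSDS lists. Over all autosomal peaks the medians were 156, 119, 144, 144, 93.3 and 42.3 kb. Measured from the peak edge, the Zbt-KD control, Zbt-KD CSDS, GFP SSDS and ZBT-OE SSDS medians of Slc peaks were 30.3, 19.6, 6.01 and 0 kb. Pooled over the lists, which contribute unequally to each class, the median from the centre was 29.6 kb for sugar, 31.8 kb for mitochondrial, 45.8 kb for monocarboxylate, 59.3 kb for nucleotide sugar, 70.7 kb for anion, 138 kb for cation and 236 kb for amino acid carriers, and 251 kb for Slc14a2. No order of classes is read from these values. The amino acid and cation values rest largely on the far peaks of Slc6a15 and Slc39a10.

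The share of intronic centres was above that of all peaks in each list, but beyond counting error only in GFP control and ZBT-OE SSDS. Counting error treats peaks as independent, and most intronic GFP control peaks were pieces at Slc39a10, Slc25a40 and Slc2a12. No excess over loci is read from that list. In ZBT-OE SSDS the 16 peaks named 16 genes. Introns held 32.3, 26.2, 21.4, 36.4, 38.9 and 62.5% of the Slc peaks in the 6 lists, beside 15.5, 19.0, 17.7, 18.6, 24.4 and 28.9% of all peaks. Intergenic centres made up 61.3, 71.4, 64.3, 63.6, 61.1 and 37.5%, beside 81.3, 78.2, 79.5, 78.6, 71.2 and 64.6% of all. In ZBT-OE SSDS, 10 of 16 Slc peaks were intronic (62.5%, 95% Wilson interval 38.6 to 81.5%). Promoter centres numbered 3, 1, 1, 0, 0 and 0. The 3 of GFP control are 3.23% (1.10 to 9.06%) beside 0.979% of all peaks. The 1 of Zbt-KD control is 7.14% (1.27 to 31.5%) beside 0.768% of all. Each interval covers counting error only, and its lower end lies above the share of all peaks. With only 3 and 1 peaks behind them, no excess of promoter centres is read. With promoters counted by a centre within 1 kb of the TSS, the Slc share was 7.53% in GFP control and 6.25% in ZBT-OE SSDS. It was 2.38% in GFP CSDS, 7.14% in Zbt-KD control and 0% in Zbt-KD CSDS and GFP SSDS. The share of all peaks by this count is not given, so these values are not set against those above. An intronic centre need not lie in a Slc gene: the Slc39a10 peaks lie in Dnah7c, the Slc1a2 peak over Pamr1 and the Slc14a2 peak in Setbp1. Of the 194 peaks, 64 overlapped the body of the gene they name, 42 covered its TSS, and 108 (55.7%) lay over no coding gene. The same shares over all autosomal peaks are not given, so no trait particular to Slc peaks is read.

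**Figure D4:**
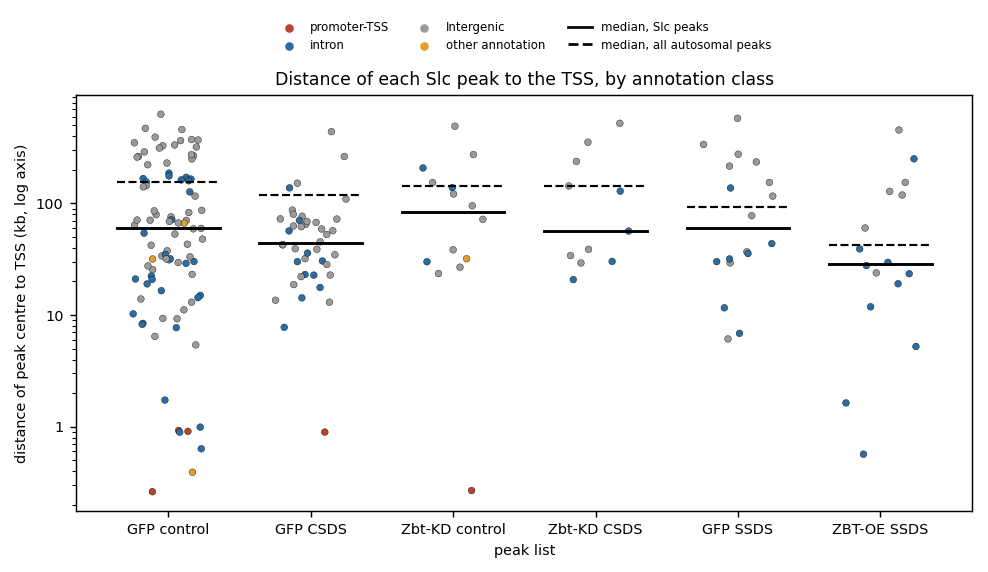
Each point is 1 Slc peak, placed by list and by the distance of its centre to the listed TSS in kb on a log axis, and coloured by annotation class; solid lines are medians of the Slc peaks and dashed lines medians of all autosomal peaks of the list. The solid line is below the dashed line in every list, at 28.8 against 42.3 kb in ZBT-OE SSDS and 59.8 against 156 kb in GFP control.

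An L1 element was listed at the centre of 58 of the 194 Slc peaks and a long terminal repeat element at 27. The L1 share was 24.7, 38.1, 57.1, 27.3, 27.8 and 18.8% in the 6 lists, beside 32.6, 29.0, 31.6, 32.9, 26.5 and 22.4% of all peaks. The 57.1% of Zbt-KD control is 8 of 14 peaks, with an interval (32.6 to 78.6%) that lies above the share of all its peaks. The GC content of the length covered by Slc peaks was 39.6 to 40.7%, beside 39.8 to 40.5% for all peaks and 41.9% for the 19 autosomes. The soft-masked share was 44.7 to 48.0%, beside 44.2 to 47.3% for all peaks and 33.5% for the autosomes.

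Ranked within its list by fold enrichment, the median Slc peak stood at percentile 56.0 in GFP control, 52.96 in GFP CSDS, 70.7 in Zbt-KD control, 76.0 in Zbt-KD CSDS, 52.96 in GFP SSDS and 45.0 in ZBT-OE SSDS. The Slc peaks of the knockdown and SSDS lists were few and wide beside those of GFP control and GFP CSDS, as were all autosomal peaks. In both knockdown lists the Slc peaks were also highly ranked, with 11 of 14 and 9 of 11 above percentile 50. In ZBT-OE SSDS 7 of 16 were above it.

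Of 16 transporters known from astrocytes, 13 had no peak over their gene in any list, among them the glutamate transporter genes Slc1a2 and Slc1a3, the cystine exchanger gene Slc7a11, the bicarbonate cotransporter gene Slc4a4, the glutamine transporter gene Slc38a3 and the glucose transporter gene Slc2a1. This is close to the background, since 13.7% of all coding genes were overlapped in some list. Slc13a5 was covered with its TSS in all 6 lists, and the bodies of Slc7a10 and Slc16a1 were touched in GFP SSDS only. Of 10 astrocyte marker genes, only Atp1b2 was overlapped, in ZBT-OE SSDS. These 10 include Slc1a2 and Slc1a3, and against 13.7% of all coding genes their number does not bear on the labelled cell type. Gfap and Aqp4 were uncovered in all lists. No list overlapped the body of any of 8 neuronal, 6 microglial, 6 oligodendrocyte lineage or 5 endothelial marker genes, and the cell composition of the samples was not tested.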

How the data were processed

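The members and gene lists were chosen with earlier results of these data known. In the study's methods, alignment was by HISAT2 to mm10 at default settings, multiply mapped and duplicate reads were discarded (the latter through SAMtools), and MACS was run without a fragment model and with an FDR limit of 0.05. The pooling of samples into a list is not given in the sources used here. The authors deposited 1 annotated peak list per group. Its fold enrichment is the caller's ratio of signal to background, and its q-value is the deposited FDR of a peak. Annotation, nearest gene and distance were used as the authors deposited them. Depth is unknown.

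Peaks were read with starts counted from 1 and compared in Python 3.11.15 (pandas 2.3.3, numpy 2.4.6, matplotlib 3.10.9). Genes were GENCODE M21 on GRCm38, which has mm10 coordinates; all 30 members matched by Ensembl ID. For 103 of 194 member peaks the listed distance fell within 1 bp of that to the GENCODE 5′ end. Peaks overlapping by 1 bp were shared, and a TSS was covered when a peak of any name included it. The overlap code was tested on simulated peaks and recovered 3000 of 3000. Named genes were those in all 6 lists, the highest fold enrichment per class, the 3 highest opened and closed peaks per comparison, those with a covered TSS, and astrocyte transporters; the other members are described so that each of the 30 is accounted for. Alternatives were overlap, slack, score, q-value, distance, gene assignment and scale. With 1 list per group, no test was run. Some items are not reported here.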

Additional observations from a re-analysis of the deposited data

Results flagged for a closer look

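For 6 genes the share of the region spanned by their peaks moved by at least 10 percentage points with CSDS under both viruses, but in opposite directions. The same count over all named genes is not given, so nothing particular to Slc genes is read from it. Each value comes from 1 list per group, the difference between the viruses was not tested, and Zbt-KD lists cut chromatin into wider peaks than GFP control and GFP CSDS. CSDS minus control was 13.7 points under Zbt-KD and -23.5 points under GFP for Slc22a19, an organic anion transporter gene. It was 77.1 and -32.0 points for its neighbour Slc22a29, 20.7 and -29.0 points for the zinc importer gene Slc39a10, and 66.5 and -41.5 points for the glycine transporter gene Slc6a9. The opposite order was seen for Slc35f1, with -92.9 points under Zbt-KD and 19.4 points under GFP, and for Slc7a12, with -87.0 and 100 points. Other genes passed the same limit in 1 direction under both viruses. Slc31a2 had 94.8 points under Zbt-KD and 37.5 under GFP, and Slco6c1 had -86.7 and -13.3. For several of these genes the region itself was drawn from few lists, which fixes part of the pattern. The Slc6a9 region consists of GFP control peaks alone, so its change under GFP could not be positive, and the Slc7a12 region comes from GFP CSDS and Zbt-KD control alone, so its opposite signs restate which lists named it. The Slc22a29 and Slc35f1 regions come from GFP control and GFP CSDS.

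Outside the autosomes, 1 Slc gene was named. Slc6a14 on chromosome X, a carrier of neutral and cationic amino acids, was named by 14 peaks in GFP control and 10 in GFP CSDS, on a chromosome that no comparison used. It was also named by 3, 2, 1 and 1 peaks in Zbt-KD control, Zbt-KD CSDS, GFP SSDS and ZBT-OE SSDS. These peaks covered 391, 430, 322, 448, 482 and 502 kb in the 6 lists, so all 6 lists hold this signal, and no difference between groups is read from the number of peaks.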

How the results depend on the processing

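Leaving out the q-value limit, which could move nothing, 87 of 112 values recomputed under an alternative stayed within counting error or within 1.5 times the count, and 25 moved. Where few peaks entered, counting error was wide, so a share could change much and still be counted as staying. The tally is therefore not a measure of robustness. No paired analysis was possible because each group is represented by 1 pooled list, and for the same reason no sample could be left out. The largest q-value of an autosomal peak was 0.000189 to 0.000234 over the lists, so a limit of 0.001 removed no peak. An overlap of 50% of the shorter peak and a slack of 500 bp moved none of 10 shares each. Counting promoters by a centre within 1 kb of the TSS left the 6 Slc shares within counting error. That of GFP control went from 3.23 to 7.53%, and the share of all peaks by this count is not given. Within counting error, the upper 50% by fold enrichment took the opened and closed shares of ZBT-OE against GFP under SSDS to 14.3 and 11.1%. The shares of all peaks at that setting are not given. The count of genes in all 6 lists stayed within 1.5 times by a TSS within 10 kb or by gene body, at 11, but only 3 were the same genes.

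On 1 scale the closed share of Slc peaks was 0% in each CSDS or knockdown comparison and 6.67% for ZBT-OE against GFP under SSDS, and the opened share was 0% for Zbt-KD control against GFP control; fewer, wider regions enter by construction. With the upper 50% of each list by fold enrichment, the opened share was 0% for Zbt-KD control against GFP control. The opened and closed shares were 0% for Zbt-KD CSDS against Zbt-KD control. The shares of all peaks at that setting are not given, so no fall particular to Slc peaks is read. At the same setting 5 genes were named in all 6 lists (Slc22a28, Slc39a10, Slc44a1, Slc5a7 and Slc6a15).

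Slc peaks made up 2.58% of GFP control and 2.01% of GFP CSDS on 1 scale. Assigned by a TSS within 10 kb they made up 0.499% of GFP control, 0.469% of GFP CSDS and 2.75% of ZBT-OE SSDS, and by overlap with a gene body 0.554, 0.587 and 2.59%. Measured from the peak edge, the median distance was 19.6 kb in Zbt-KD CSDS, 6.01 kb in GFP SSDS and 0 kb in ZBT-OE SSDS. That of Zbt-KD control went from 83.8 to 30.3 kb, although it was counted among the values that stayed.

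Alternatives for the TSS counts were chosen after seeing the data. With the upper 50% the opened count was 1 for Zbt-KD CSDS against Zbt-KD control, 0 for Zbt-KD CSDS against GFP CSDS and 2 for ZBT-OE against GFP under SSDS. With a TSS within 1 kb of a peak it was 1 for Zbt-KD CSDS against GFP CSDS. Counts of all coding TSSs under these alternatives are not given, so no change particular to Slc genes is read. Beyond the construction of each alternative, the cause was not tested.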
